A study of Mus musculus with 2 samples.

Results

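IgG-high B-cells were cells that carried B-cell transcripts and at least 5 UMIs of the IgG heavy chain genes, without the high Jchain level of plasma cells. They were chosen on raw counts of unique molecular identifiers (UMIs). A cell had at least 1000 UMIs in all, Cd79a, Cd79b and Ms4a1 together made up at least 0.0025 of them, Cd3d, Cd3e and Cd3g together had at most 1 UMI, Jchain had fewer than 20, and Ighg1, Ighg2b, Ighg2c and Ighg3 together had at least 5. The rule found 280 cells among 13150 B-cells and 16443 barcodes, of which 81 were Early and 199 Advanced. The 4 IgG genes, Jchain, the B-cell genes and the CD3 genes set the membership, so their levels are a description and were not tested.

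Male mice were the source of the popliteal lymph nodes (PLNs), the nodes that collect lymph from the knee and hind paw. They were TNF-Tg mice on a C57BL/6 background, a model of inflammatory-erosive arthritis driven by a TNF transgene. The Early library held mice of 5 to 6 months and the Advanced library mice older than 8 months. Each library pooled 6 PLNs of 3 mice, digested with Accumax and sorted as Hoechst-positive, Sytox Green-negative live cells, and was read by 10x Genomics 3′ scRNAseq. Both groups carried the transgene and no wild-type library was analysed here. With 1 library per stage there is no replicate of a stage, and stage, age and library cannot be told apart.

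A naive B-cell makes IgM and IgD from a single long heavy chain transcript, by splicing its variable exon to the constant exons of Ighm or Ighd. After activation, class switching cuts out Ighm and Ighd and places an IgG, IgE or IgA constant gene behind the variable exon. Switched cells are found in germinal centres, where B-cells divide and mutate their receptors, among memory B-cells, which carry IgG on their surface, and among plasma cells, which secrete it.

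The hinge exons are shown because the 4 isotypes differ there in length and in cysteines. They are not the part that 3′ counts read. The hinge joins the antigen-binding arms to the constant stem, and its cysteines tie the heavy chains together. The exons below are exon 2 of each gene on the minus strand of chromosome 12 in GRCm38 (GENCODE annotation), written 5′ to 3′ with in-frame cysteine codons in capitals, in the order in which the genes follow Ighm and Ighd. They lie at chr12:113360529-113360576 for Ighg3, chr12:113329844-113329882 for Ighg1, chr12:113307261-113307326 for Ighg2b and chr12:113288263-113288325 for Ighg2c.
Ighg3: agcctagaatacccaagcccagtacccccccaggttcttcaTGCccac
Ighg1: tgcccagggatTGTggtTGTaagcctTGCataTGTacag
Ighg2b: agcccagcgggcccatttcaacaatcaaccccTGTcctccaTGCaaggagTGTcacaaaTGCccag
Ighg2c: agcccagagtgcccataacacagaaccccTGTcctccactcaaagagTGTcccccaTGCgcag
The exons were 48, 39, 66 and 63 bases long and held 1, 4, 4 and 3 cysteine codons. Over the whole coding sequence Ighg2b and Ighg2c were 85.73% identical, and every other pair was between 74.12% and 75.94% identical. In the last 300 bases of the transcripts compared, Ighg2b and Ighg2c were 82.78% identical, against at most 71.62% for the other pairs. Over the whole transcripts the longest shared run was 78 bases for Ighg2b and Ighg2c and at most 41 for the other pairs. These transcripts had 4 exons, and membrane forms with other 3′ ends were not compared. By this likeness the split between Ighg2b and Ighg2c is the least certain of the isotype counts. The counts also do not separate membrane, secreted and unswitched germline transcripts of an IgG gene.

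IgG-high cells made up 81 of 7434 Early B-cells, or 1.09% (95% Clopper-Pearson interval 0.866 to 1.35), and 199 of 5716 Advanced B-cells, or 3.48% (3.02 to 3.99). The Advanced share was 3.20 times the Early share. All intervals here cover counting error only and not the difference between mice. By depth, the ratio of the shares was 2.54 in cells of 1000 to 5000 UMIs, 4.12 at 5000 to 10000, 1.60 at 10000 to 15000, 1.54 at 15000 to 25000 and 2.64 above 25000. The share was lowest in cells of 5000 to 10000 UMIs, at 0.458% of Early and 1.89% of Advanced B-cells, and was 1.19% and 3.01% in the shallower cells. Above that bin it was higher in each deeper one, reaching 8.72% and 13.4% at 15000 to 25000 UMIs and 7 of 37 and 30 of 60 cells above.

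T-cells, which do not transcribe IgG, show how many IgG UMIs were counted in cells that make none. Their gate leaves out droplets that mix T-cells with B-cells or plasma cells, so these are not covered. Among cells with at least 2 CD3 UMIs, Cd79a, Cd79b and Ms4a1 under the B-cell fraction and fewer than 20 Jchain UMIs, 0 of 193 Early T-cells reached 5 IgG UMIs, which allows a share of up to 1.55% (3 counts of the total) or 1.89% by the Clopper-Pearson limit. In the Advanced library 22 of 1363 T-cells did, or 1.61% (1.01 to 2.43). The median depth was 11412 and 11508 UMIs in Early and Advanced T-cells, against 6566 and 7398 in B-cells. Among Advanced cells of 5000 to 10000 UMIs the share was 1.89% of B-cells and 0.249% of T-cells, and at 15000 to 25000 UMIs it was 13.4% and 2.19%, so B-cells were above T-cells at like depth. At least 10 IgG UMIs were found in 0.707% of Advanced B-cells and 0 of 401 T-cells of 5000 to 10000 UMIs, and in 3.44% and 0 of 460 of those of 10000 to 15000. Over all depths, Advanced cells with 5 to 9 IgG UMIs were 1.59% of B-cells and 1.25% of T-cells, whereas cells with 20 or more were 0.980% of B-cells and 0.0734% of T-cells. Other barcodes were those below the B-cell fraction with at most 1 CD3 UMI and fewer than 20 Jchain UMIs. Of these, 15 of 439 Early (3.42%) and 38 of 736 Advanced (5.16%) reached 5 IgG UMIs. Their median depth was 12372 and 12781 UMIs. At 5000 to 10000 UMIs their share was 1.80% and 1.10%, and at 15000 to 25000 it was 5.10% and 4.12%. What these barcodes are was not determined. Free IgG, read in T-cells with fewer than 5 IgG UMIs, was also more abundant in the Advanced library. These T-cells held 71.4 IgG UMIs in every 1000000 UMIs against 13.8 in Early T-cells. B-cells with fewer than 5 IgG UMIs held 107 in the Advanced and 27.9 in the Early library. The B-cell values can include IgG that these cells transcribe.

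**Figure D1:**
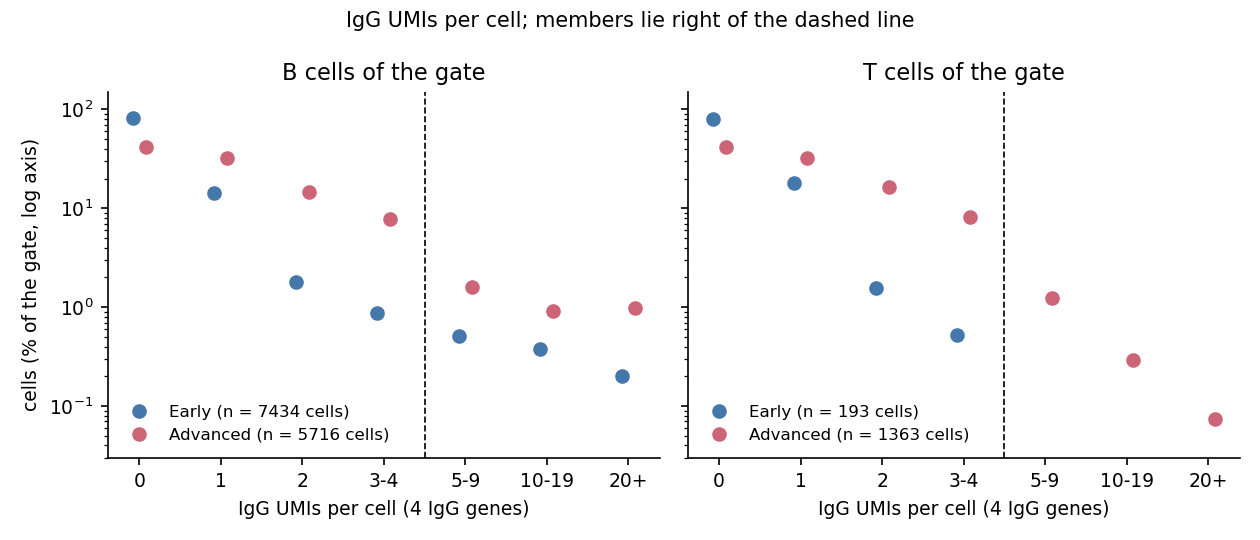
Share of B-cells (left) and T-cells (right) by the number of IgG UMIs in the cell, as a percentage of each gate on a log axis, with Early in blue and Advanced in red; a share of 0 is not drawn. Right of the dashed line, which marks 5 UMIs, Early T-cells are absent, and Advanced T-cells fall to 0.0734% at 20 or more UMIs while Advanced B-cells stay at 0.980%.

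The median IgG-high cell had 10 IgG UMIs (range 5 to 58) among Early cells and 11 among Advanced cells, in a range of 5 to 215. Just outside the threshold, with exactly 4 IgG UMIs, lay 20 Early and 117 Advanced B-cells, and just inside it, with exactly 5, lay 11 and 38. At the Jchain limit, 4 Early and 11 Advanced members had 15 to 19 Jchain UMIs, and 5 and 6 B-cells with 20 to 29 were left out. The members held 2.37% and 2.48% of all IgG UMIs of the Early and Advanced libraries, and the barcodes with 20 or more Jchain UMIs held 93.3% and 82.9%.

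The B-cell identity of the members was checked on genes outside the rule. Cd22, an inhibitory co-receptor of the B-cell receptor, was at 161 counts per 1000000 UMIs (CPM) in Early and 170 in Advanced members, and at 170 and 160 in B-cells with 0 IgG UMIs of similar depth. Pax5, which maintains B-cell identity, was at 205 and 208 CPM in members and 271 in matched cells of both libraries. Plasma cell genes were mixed. Sdc1, which encodes the plasma cell surface proteoglycan CD138, had 0 UMIs in Early members and 2.72 CPM in Advanced members, and Tnfrsf17, the survival receptor BCMA, had 0 UMIs in members of both libraries. Xbp1, which drives the secretory programme, was at 41.0 and 43.5 CPM in members against 501 and 558 CPM in barcodes with 20 or more Jchain UMIs. Mzb1 and Slpi were above matched cells, at 869 and 729 against 510 and 464 CPM and at 35.7 and 72.1 against 0.983 and 1.14. Prdm1 was above them too, at 7.13 and 5.78 against 1.38 and 2.49 CPM, from 8 and 17 UMIs in members. The 7 plasma cell markers, Jchain of the rule among them, summed to 1149 and 1031 CPM in members against 565 and 511 in matched cells. Members were thus near other B-cells in Cd22, above matched cells in the plasma cell sum and far below the Jchain-high barcodes in Xbp1. The Jchain limit of the rule separates members from those barcodes, so the Xbp1 comparison is not independent of it.

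Ighg2b, the gene of IgG2b, was the leading IgG gene in most members. It had the most IgG UMIs in 49 Early members, 60.5% (49 to 71.2), and in 119 Advanced members, 59.8% (52.6 to 66.7). Ighg1 led in 14 Early members, 17.3% (9.78 to 27.3), and in 49 Advanced members, 24.6% (18.8 to 31.2). Ighg3 led in 10 and 14 members, or 12.3% and 7.04%, and Ighg2c in 7 and 9, or 8.64% and 4.52%. No gene led in 1 Early and 8 Advanced members, where counts were tied. The intervals of the Early and Advanced shares overlapped for each of the 4 genes.

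Most members were dominated by 1 isotype. The leading gene held a median of 96.6% of the IgG UMIs of an Early member and 85.7% of those of an Advanced member, and 40 Early and 54 Advanced members had UMIs of 1 IgG gene only. At least 5 UMIs of each of 2 IgG genes were found in 7 Early and 18 Advanced members. The leading gene held less than 60% in 5 Early and 27 Advanced members. Free IgG RNA, which was higher in the Advanced library, moved with these mixed counts, and its part in them was not tested.

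Cells without Ighm were more frequent among members than among other B-cells, though most members carried it. Ighm had 0 or 1 UMI in 30 of 81 Early members, 37.0% (26.6 to 48.5), and in 62 of 199 Advanced members, 31.2% (24.8 to 38.1). Among B-cells with 0 IgG UMIs, matched for depth with 5 cells to a member, it had 0 or 1 UMI in 1 of 405 Early and 5 of 995 Advanced cells. When each cell was thinned to 5000 UMIs, the shares were 48.7% and 42.4% of members against 0.513% and 0.524% of matched cells. Thinning left out 3 Early and 8 Advanced members and 15 and 40 matched cells that were shallower, and without thinning the shares in the cells kept were 35.9% and 31.4% of members against 0% and 0.105% of matched cells.

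The Ighm level was lower at higher IgG counts. Early B-cells with 0 IgG UMIs held 1973 CPM of Ighm and Advanced ones 2137. Members with 5 to 9 IgG UMIs held 2023 and 1997 CPM, members with 10 to 19 held 1005 and 955 CPM, and members with 20 or more held 577 and 355 CPM. By these sums, members with 5 to 9 IgG UMIs were near B-cells without IgG and those with more were below. Even so, 21.1% of Early and 13.2% of Advanced members with 5 to 9 had 0 or 1 Ighm UMI, against 0.459% and 0.416% of B-cells with 0 IgG UMIs. In the plot of Ighm against IgG, low and high Ighm counts were found side by side among cells with 5 to 20 IgG UMIs.

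**Figure D2:**
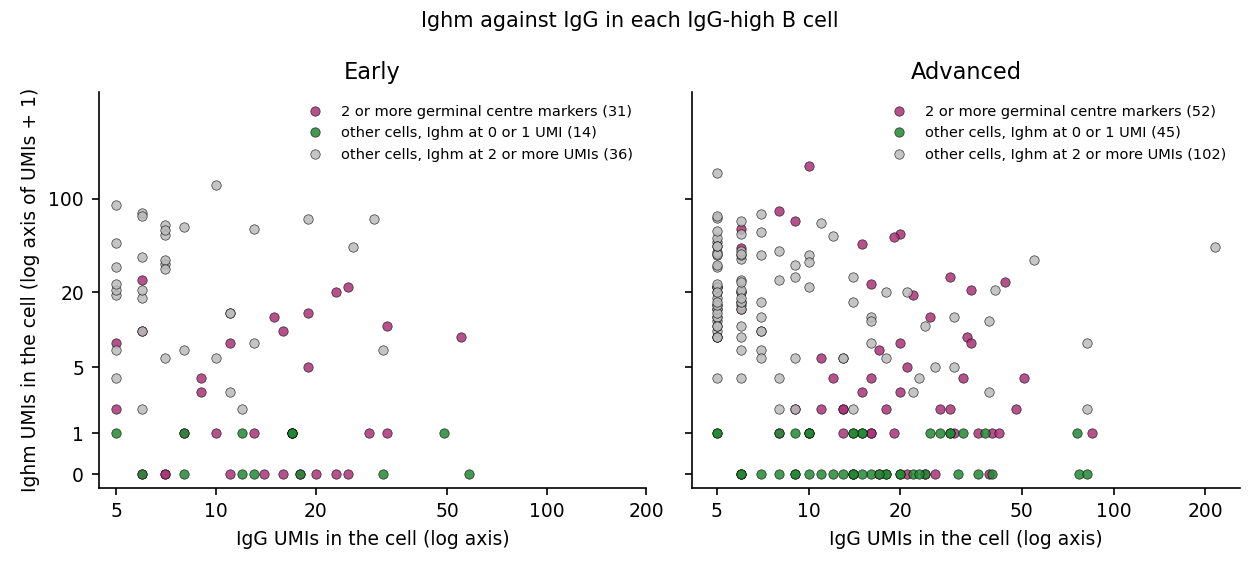
Ighm UMIs against IgG UMIs in each IgG-high B-cell of the Early (left) and Advanced (right) library, both on log axes (Ighm as UMIs + 1); each point is 1 cell, coloured by the 3 ranges described in the text. Cells with 0 or 1 Ighm UMI lie along the bottom, from 5 IgG UMIs upward, and the highest IgG count, 215 UMIs, is an Advanced cell that also carries Ighm.

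Among the other heavy chain genes, Ighd, the IgD gene, was at 200 CPM in Early and 238 in Advanced members and at 599 and 613 in matched cells, and was lower in members by edgeR's quasi-likelihood test, described below (log2 ratio −1.58 ± 0.08 SE, Benjamini-Hochberg adjusted p = 5.20e-77). Ighm was at 1280 and 1117 CPM in members and 2056 and 2128 in matched cells (log2 ratio −0.94 ± 0.05 SE, adjusted p = 8.02e-63 by edgeR). Members lay below matched cells in both libraries for both genes. Igha, the IgA gene, was under the level tested, at 11.6 and 27.9 CPM in members and 8.65 and 2.80 in matched cells, and Ighe had UMIs in 2 Early and 5 Advanced members and in 0 matched cells. Variable segments were sparsely read, with a median of at most 1 Ighv UMI a member, so clonal relations were not assessed.

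The members were compared across genes with the matched cells. The question was which genes, beyond the heavy chain, set IgG-high B-cells apart. UMIs were summed per library and group, so each side had 2 sums, and the edgeR fit kept the library as a block. Its 1 residual degree of freedom measures how far the 2 libraries agree, not the spread between mice or cells. Dispersion was shared across genes, so the size of a p-value also depends on the UMIs pooled over cells. Of 4754 genes with a mean of at least 20 CPM, 813 (17.1%) were higher and 766 (16.1%) lower in members at an adjusted p under 0.05, and 209 and 43 of these differed at least 2-fold. Of the 813 and 766, 811 and 727 had that direction in both libraries. With library totals in place of trimmed-mean (TMM) factors the median of all genes moved by 0.13 on the log2 scale, and 1106 genes were higher and 362 lower. The log2 ratios here use TMM factors and so lie about 0.13 below ratios of the CPM values.

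Genes of the germinal centre led the higher side. Gcsam, a germinal centre signalling adaptor, was at 87.4 CPM in Early and 51.3 in Advanced members, against 1.97 and 0.518 in matched cells (log2 ratio 5.81 ± 0.30 SE, adjusted p = 2.47e-76 by edgeR). Rgs13, a regulator of chemokine receptor signalling, was at 141 and 101 CPM against 7.28 and 1.97. For each of these genes both libraries showed members far above matched cells. Mef2b, a transcription factor upstream of Bcl6, was at 164 and 101 CPM against 8.65 and 3.63. Nuggc, a nuclear GTPase of germinal centres, was at 65.1 and 45.9 CPM against 1.38 and 0.933.

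Others of the 12 genes with the highest ratios were Slpi (log2 ratio 5.60), H1fx (5.22), Basp1 (4.94), Mybl1 (4.65), Mki67 (4.09), Eaf2 (3.93) and Cenpf (3.81). Slpi encodes a protease inhibitor abundant in plasma cells, H1fx a linker histone, Mybl1 a transcription factor of dividing germinal centre cells, and Mki67 and Cenpf proteins of dividing cells. Slpi had UMIs in 9 Early and 40 Advanced members. Of the germinal centre and class switching list, 13 of 15 genes tested were higher and 0 lower, with a median log2 ratio of 3.93 against −0.02 over all 4754 genes. Of the cell cycle list, 19 of 19 were higher, with a median of 2.15. The minimum of 20 CPM is a mean over members and matched cells. Genes near 0 in matched cells, such as Gcsam, pass it only through members. The counts and medians of these 2 lists are thus set in part by that filter. Cdk1, the mitotic kinase, was at 87.4 and 80.9 CPM in members and 8.26 and 6.01 in matched cells (log2 ratio 3.48).

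**Figure D3:**
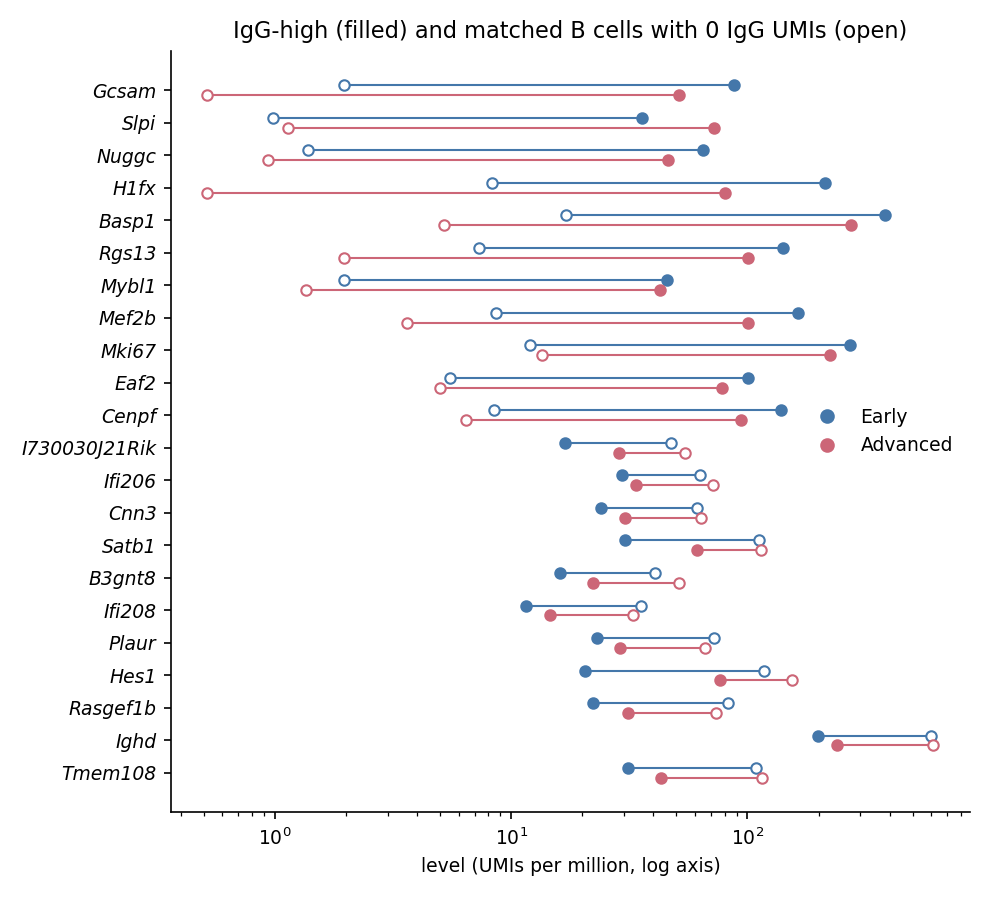
Levels of 11 of the 12 genes with the highest and 11 of the 12 with the lowest log2 ratio, in CPM on a log axis, for IgG-high B-cells (filled) and matched B-cells with 0 IgG UMIs (open) of the Early (blue) and Advanced (red) library; each point is the sum over 1 group of cells. The upper genes differ by over 10-fold in each library, as Mki67 does at 271 against 12 CPM in the Early library, and the lower genes by less, as Ighd does at 200 against 599 CPM.

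Genes of resting follicular B-cells were lower. Of 16 genes of the naive and follicular list, 11 were lower and 1 higher, with a median log2 ratio of −0.56. Cr2, the complement receptor CD21, was at 174 CPM in Early and 210 in Advanced members against 446 and 389 in matched cells (log2 ratio −1.20). Fcer2a, the low-affinity IgE receptor CD23, was at 146 and 195 CPM against 302 and 326 (log2 ratio −0.98). Satb1, a chromatin organiser, was at 30.3 and 61.2 CPM against 112 and 114 (log2 ratio −1.29). Members were lower in both libraries for each of these 3 genes. Of the 12 genes with the lowest ratios, besides Ighd and Satb1, Tmem108 was at −1.65, Rasgef1b, an exchange factor for Ras-family GTPases, at −1.56, Hes1, a Notch target, and Plaur, the urokinase receptor, both at −1.46, and Ifi208, B3gnt8, Cnn3, Ifi206 and I730030J21Rik between −1.42 and −1.21.

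Homing and egress receptors were mostly lower, 10 of 14 tested against 1 higher, with a median log2 ratio of −0.50. Gpr183, the oxysterol receptor that positions B-cells at the follicle edge, was at 125 and 168 CPM in members against 195 and 235 in matched cells (log2 ratio −0.67). S1pr1, which carries lymphocytes out of the node, was at 93.6 and 85 CPM against 145 and 121 (log2 ratio −0.68). The receptor that was higher, the integrin chain Itgb1, was at 106 and 89.1 CPM against 20.7 and 20.3 (log2 ratio 2.10). Of the MHC class II list 6 of 12 were lower and 0 higher, with a median of −0.18, and of the B-cell receptor signalling list 6 of 20 were lower and 1 higher. Of the TNF family and receptor list 4 of 6 were lower and 0 higher. Cd40, the receptor for T-cell help, was at 41.0 and 58.1 CPM against 66.1 and 71.1 (log2 ratio −0.54).

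Memory and B1 genes moved both ways. Of the memory list, 5 of 13 genes were higher and 5 lower. Anxa2, a membrane-binding annexin, was at 119 and 91.1 CPM in members and 11 and 8.92 in matched cells (log2 ratio 3.26), and Zbtb20, a transcription factor of switched B-cells, at 292 and 230 against 91.5 and 78.2 (log2 ratio 1.48). Both were higher in each library. Of the marginal zone and B1 list, 3 of 8 were higher and 2 lower. Bhlhe41, a transcription factor of B1 cells, was at 68.7 and 75.8 CPM against 10.4 and 10.2 (log2 ratio 2.71), and Apoe, the apolipoprotein, at 1076 and 772 against 369 and 215 (log2 ratio 1.58). Dtx1, a Notch pathway gene of marginal zone B-cells, was lower (log2 ratio −0.997). Of the age-associated list 3 of 5 genes were higher and 0 lower, namely Itgb1, Ahnak (1.19) and Zeb2 (1.00).

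Plasma cell and secretory genes showed little of a common shift. Of all 4754 genes tested, 17.1% were higher and 16.1% lower, and several of the list counts below lie near these shares. Of the plasma cell identity list, 2 of 6 were higher, Slpi and Mzb1, a chaperone of immunoglobulin assembly (log2 ratio 0.58), and 2 lower, with a median of 0.05. Irf4, a transcription factor of activated B-cells and plasma cells, was lower, at 27.6 and 41.5 CPM against 59.2 and 60.7 (log2 ratio −0.84). Of 22 secretory pathway and unfolded protein response genes 5 were higher and 2 lower, with a median of 0.09. Of the activation list 2 of 13 were higher and 5 lower. Egr3 and Nr4a1, which are induced by receptor signalling, were lower (−1.12 and −0.86), whereas Gadd45b was higher (1.11). Of the oxidative phosphorylation list 8 of 17 were higher and 0 lower, with a median of 0.18. Of the interferon list 1 of 7 was higher and 3 lower, and of the dissociation stress list 1 of 11 was higher and 4 lower. Among light chain genes Iglc1 was higher (0.71) and Iglc2 lower (−0.44), and Igkc was at 6118 and 6489 CPM in members and 5801 and 6115 in matched cells.

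Markers of other cell types were given beside these counts. The 8 T-cell markers, of which the 3 CD3 genes are limited by the rule in members and matched cells alike, summed to 4.46 CPM in Early and 36.0 in Advanced members and to 6.10 and 41.8 in matched cells. The 7 macrophage, monocyte and neutrophil markers summed to 9.81 and 103 CPM in members and 43.3 and 45.6 in matched cells, and C1qa and C1qc had 0 UMIs in members. Lyz2, the myeloid lysozyme, made up most of the Advanced sum, at 68.3 CPM. A single cell held 48.3% of those Lyz2 UMIs. The part of myeloid RNA in the Advanced values was not tested.

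Depth and division moved with the comparison. Early members had a median of 11904 UMIs and Advanced members 11709, and matched cells 11906 and 9009, since 91 of 199 Advanced members were matched to cells over 0.5 away on the log2 scale. With 1 matched cell to a member the Advanced medians were 11709 and 11712, and 420 genes were higher and 315 lower. At least 2 UMIs of Mki67 and Top2a together, taken here as a sign of a dividing cell, were found in 28 Early and 44 Advanced members and in 14 and 17 matched cells. Without such cells 124 genes were higher and 96 lower of 4596 tested, and with a Jchain limit of 5 UMIs 223 were higher and 191 lower. The removal of dividing cells and the match to 1 cell were chosen after the values had been seen. Without dividing cells, calls over all genes fell from 813 higher and 766 lower of 4754 to 124 and 96 of 4596. Fewer calls in a list are thus not particular to that list. Without dividing cells the homing list had 0 genes lower and 1 higher, the MHC class II, oxidative phosphorylation, TNF family and dissociation stress lists had 0 called, the B-cell receptor list 2 lower, the activation list 1 lower and 1 higher, and the memory list 6 higher and 0 lower.

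A set of 101 higher and 85 lower genes was called in the comparison above, without dividing cells and with the Jchain limit of 5. Without dividing cells the log2 ratio was 5.84 for Slpi, 4.34 for Rgs13, 4.31 for Basp1, 3.30 for Bhlhe41, 3.20 for Mef2b, 2.45 for Itgb1, 2.30 for Anxa2, 2.27 for Fas and 2.26 for Apoe. It was −1.39 for Tmem108, −1.19 for Ighd, −0.70 for Cr2 and −0.56 for Ighm. Of the 12 genes with the highest ratios, 4 still reached the mean of 20 CPM without dividing cells, and those 4 were called. The germinal centre list then had 5 of 10 genes higher, the naive and follicular list 0 higher and 6 lower, and the cell cycle list 3 of 7 higher. A gene near 0 in matched cells reaches that mean only through members. The 4 calls and the germinal centre count were thus set in part by the filter.

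The members were not of 1 kind. For description they were divided, after their values had been seen, into 3 ranges. The first held cells with UMIs of at least 2 of 5 germinal centre genes (S1pr2, Mef2b, Gcsam and Rgs13 among them), 31 Early members, 38.3% (27.7 to 49.7), and 52 Advanced members, 26.1% (20.2 to 32.8). The second held other cells with 0 or 1 Ighm UMI, 14 Early and 45 Advanced members, 17.3% and 22.6%. The third held the rest, 36 and 102 members, 44.4% and 51.3%. These are ranges and not cell types. Near the limits, 4 Early and 26 Advanced members had exactly 1 of the 5 genes, and 3 and 4 had exactly 2. Thinned to 5000 UMIs, the first range was 30.8% of Early and 20.4% of Advanced members, against 1.28% and 0.419% of matched cells. As a share of all B-cells, the first range was 0.417% (Early) and 0.910% (Advanced), the second 0.188% and 0.787%, and the third 0.484% and 1.78%.

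Germinal centre genes and IgG overlapped in part. Of all B-cells with at least 2 of the 5 genes, 31 of 72 Early cells, 43.1%, and 52 of 85 Advanced cells, 61.2%, were IgG-high. At least 2 of the 5 genes were found in 0.246% and 0.458% of B-cells with 0 IgG UMIs and in 9 of 15 and 25 of 56 cells with 20 or more. Fas, a death receptor raised on germinal centre cells, had a UMI in 21 of the 31 Early and 43 of the 52 Advanced cells. Dividing cells were 22 of 31 and 35 of 52. All 57 members with 5 or more Jchain UMIs, 19 Early and 38 Advanced, were in this range.

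The first range was read gene by gene with a rule of size and no test. A gene counted when it reached a mean of 50 CPM and its ratio to matched cells had a 95% counting interval wholly beyond 2-fold in both libraries. The matched cells were those of all members, with median depths of 11906 (Early) and 9009 (Advanced) UMIs. Median depth was 13569 and 19103 UMIs in the first range, 8950 and 8554 in the second and 11464 and 9866 in the third. The genes that define the first range are high in it by construction. By this rule 199 of 2369 genes (8.4%) were higher and 57 (2.41%) lower in members with germinal centre genes. Cd38, an ectoenzyme that mouse germinal centre cells lose, was at 11.7 CPM in Early and 18.2 in Advanced cells of this range, and at 157 and 134 in matched cells. Bcl2, which keeps resting lymphocytes alive, was at 7.80 and 23.6 CPM against 137 and 130. Both genes were low in this range in both libraries. Ccr6, Gpr183, S1pr1, Klf2, Ighd, Ighm and Cr2 were among the other lower genes.

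In the cells without Ighm, 8 of 2119 genes (0.378%) were higher and 3 (0.142%) lower by the same rule. The lower genes were Ighm, which defined the range, Ighd and Cr2. Apoe was at 2715 CPM in Early and 2031 in Advanced cells of this range, 7.36 and 9.44 times the matched level, and Bhlhe41 at 123 and 161 CPM, 11.8 and 15.8 times. Zbtb20 was 4.05 and 4.77 times, Itgb1 4.32 and 5.02 times, Anxa2 10.6 and 7.30 times and Rgs1, a regulator of G-protein signalling, 11.8 and 6.48 times the matched level. The remaining genes were Ms4a6c and the light chain gene Iglc1. Bcl2 was above the matched level here, at 226 and 176 CPM in Early and Advanced cells, and Cd38 was at 213 and 86.8. Zbtb32, a transcription factor of memory B-cells, was at 27.4 and 28.2 CPM against 0.983 and 0.622 in matched cells, from 4 UMIs in 4 Early cells and 13 UMIs in 5 Advanced cells. The other memory markers, Cd80, Nt5e and Pdcd1lg2, had 1, 1 and 0 UMIs in the 14 Early cells of this range. They had 6, 12 and 16 in the 45 Advanced cells. Matched cells held 7, 13 and 101 UMIs of these genes in 405 Early cells, and 14, 10 and 230 in 995 Advanced cells.

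In the remaining cells 7 of 2184 genes (0.321%) were higher and 0 (0%) lower. They were Bhlhe41 (9.34 and 9.85 times the matched level), Itgb1 (7.75 and 5.21), Rgs1 (10.8 and 4.41), Apoe (3.25 and 2.80), Zbtb20, Zeb2 and A530032D15Rik. All but Zeb2 and A530032D15Rik were also higher in the cells without Ighm. Ighm itself was at 2720 CPM in Early and 1782 in Advanced cells of this range, against 2056 and 2128 in matched cells. Of members with 5 or 6 IgG UMIs, 5 of 22 Early and 4 of 64 Advanced cells had at least 2 germinal centre genes, and 3 and 5 had 0 or 1 Ighm UMI. Together they held 2083 and 2316 CPM of Ighm.

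**Figure D4:**
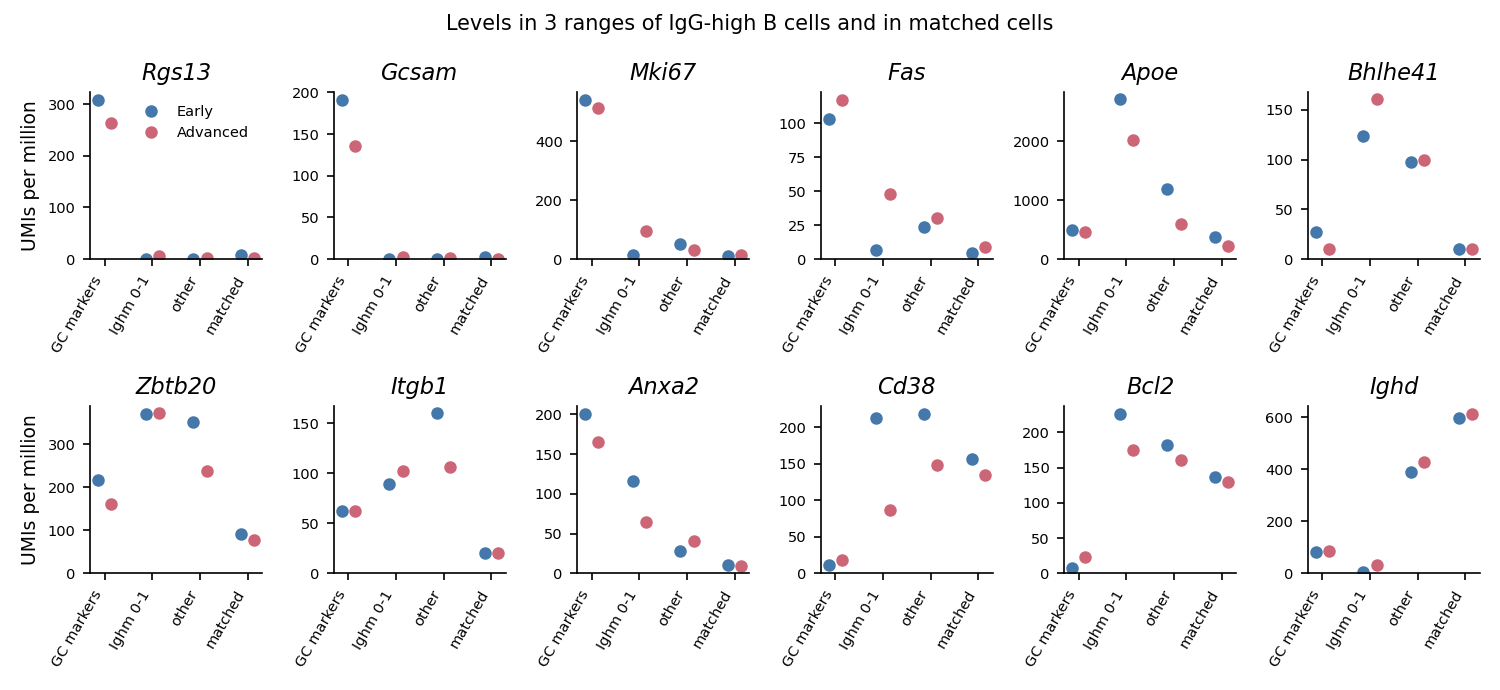
Levels of 12 genes in CPM, on linear axes from 0, in the 3 ranges of IgG-high B-cells (germinal centre genes, Ighm at 0 or 1 UMI, other) and in matched B-cells with 0 IgG UMIs, with Early in blue and Advanced in red; each point is a sum over cells. Rgs13 and Gcsam, which helped define the first range, are highest there by construction, Mki67 and Fas are also highest there, Apoe, Bhlhe41, Zbtb20 and Itgb1 in the other ranges, and Cd38 and Bcl2 lie lowest in the first, as Cd38 does at 11.7 and 18.2 CPM.

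The leading isotype went with these ranges. Of Ighg1-led members, 12 of 14 Early and 33 of 49 Advanced cells had at least 2 germinal centre genes. Of Ighg2b-led members 16 of 49 and 16 of 119 did, of Ighg2c-led members 3 of 7 and 2 of 9, and of Ighg3-led members 0 of 10 and 1 of 14. Ighg1-led cells were thus mostly in the germinal centre range in both libraries, and Ighg3-led cells hardly at all. Dividing cells were 7 of 14 and 25 of 49 of Ighg1-led and 16 of 49 and 14 of 119 of Ighg2b-led members. Median depth was 13615 and 17295 UMIs in Ighg1-led and 10986 and 10641 in Ighg2b-led members, and its part in these counts was not tested.

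**Figure D5:**
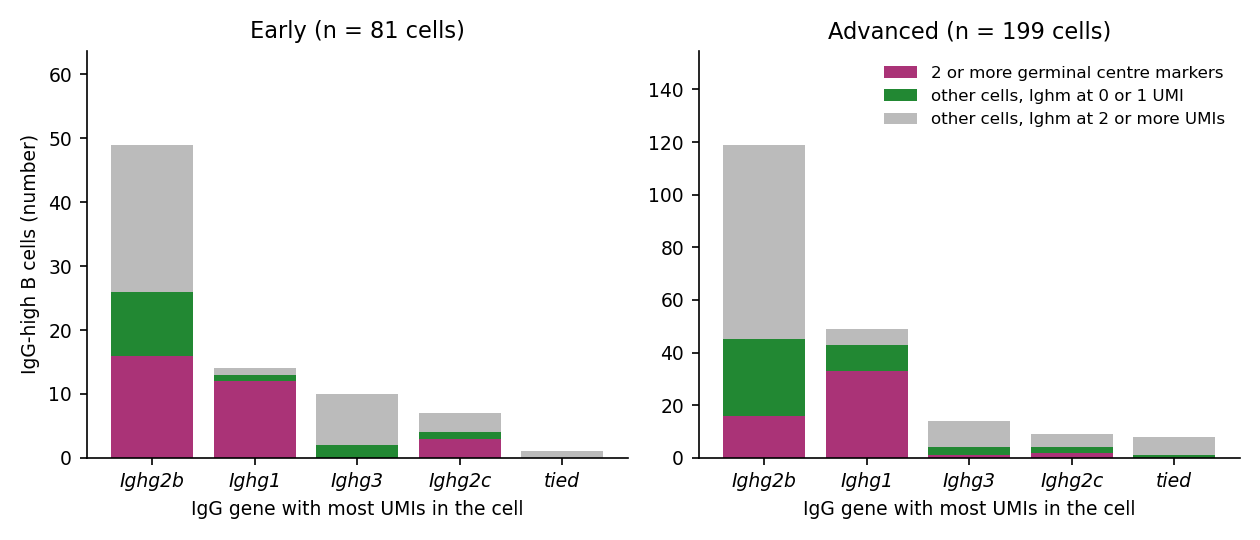
Number of IgG-high B-cells by leading IgG gene in the Early (left) and Advanced (right) library, with bars divided by the 3 ranges described in the text; the vertical scales of the panels differ. Of the Ighg1 bars, 12 of 14 and 33 of 49 cells lie in the germinal centre range, and of the Ighg2b bars 16 of 49 and 16 of 119.

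Gene by gene, Ighg1-led members differed from Ighg2b-led members in 9 of 2399 genes by the rule of size, 4 higher (0.167%) and 5 lower (0.208%). H2afx, a histone of the DNA damage response, was at 834 CPM in Early and 650 in Advanced Ighg1-led cells and at 291 and 153 in Ighg2b-led cells, 2.86 and 4.24 times as high. Tuba1c and Ube2c, genes of dividing cells, were also among the higher genes. Cd38, Bcl2, Ly6d, Plac8 and Pdcd4 were lower. Cd38 had 0 UMIs in the 14 Early Ighg1-led cells and a UMI in 26 of 49 Early Ighg2b-led cells. Ighm was at 391 and 680 CPM in Ighg1-led, 1125 and 1249 in Ighg2b-led, and 3283 and 1875 in Ighg3-led members. Ighg3-led cells had the most Ighm of the 3 in both libraries, with a median of 56.5 Ighm UMIs in the 10 Early and 18.5 in the 14 Advanced cells.

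Between stages, the IgG-high cells differed in few genes. With 1 library per stage there is no test, and genes of at least 50 CPM in either library were counted if the 95% interval of the Advanced to Early ratio excluded everything within 2-fold. Of 2515 genes, 5 (0.199%) were higher in Advanced members and 1 (0.0398%) was lower. S100a6, a calcium-binding protein, was at 16.1 CPM in Early and 66.3 in Advanced members, 4.13 times as high, against a ratio of 0.716 in matched cells. Its Early value came from 18 UMIs in 4 cells, 8 of them in 1 cell. Its Advanced value came from 195 UMIs in 45 cells, with at most 46 in a cell. Hes1 was 3.75 times as high, against 1.31 in matched cells. Tyrobp, a myeloid signalling adaptor, and Lyz2 were 3.20 and 15.3 times as high, against 1.13 and 0.659, and in the Advanced library a single cell held 61.1% of the Tyrobp UMIs of members.

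Vpreb1, a surrogate light chain gene of B-cell precursors, had 0 UMIs in Early members and 157 in 6 Advanced members, of which 1 cell held 58.6%, and it was also higher in Advanced matched cells, at 21.9 CPM against 0.197. H1fx was lower, at 212 CPM in Early and 80.6 in Advanced members, 0.380 times as high, and it was lower in Advanced matched cells too, at 8.26 against 0.518 CPM, a ratio of 0.0627. Of the gene lists, the macrophage and neutrophil sum was 1.95 times as high in Advanced members (1.72 to 2.23) and 1.04 times in matched cells, and the T-cell sum 1.28 and 1.74 times. The germinal centre sum was 0.881 times as high in Advanced members (0.842 to 0.923) and 0.864 times in matched cells, and the cell cycle sum 0.875 times (0.850 to 0.900) in members and 0.989 times in matched cells. The naive and follicular sum was 1.22 times as high (1.17 to 1.28) in members and 1.06 times in matched cells. These sums moved with the makeup given above, in which the germinal centre range was 38.3% of Early and 26.1% of Advanced members.

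Barcode quality did not set members apart in mitochondrial reads, with a median of 5.01% and 5.09% in Early and Advanced members and 5.04% and 5.24% in matched cells. The libraries shared 20 barcodes, none of them a member. The libraries held 67610110 and 83148059 UMIs in 8242 and 8201 barcodes, with a median of 6639 and 7832. Doublets could not be called, as the Scrublet caller marked 2 and 1 barcodes where the loading predicts 6.59% and 6.56%. Its highest scores, 543 and 538 barcodes, took in 7 Early and 10 Advanced members. With these barcodes left out, 771 genes were higher and 751 lower in members.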

How the data were processed

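PLN cells of 1 Early and 1 Advanced TNF-Tg pool were measured by scRNAseq. The authors deposited raw counts of UMIs per gene and called cell barcode, with no normalisation or correction for free RNA. Cell Ranger appears as 6.0.1 in the headers of the matrices. In the submitters' processing notes it appears as 3.1 and 3.1.0, along with mm10 and Seurat 4.0.3. Which version called the barcodes was not resolved. The members, gene lists and ranges were chosen with earlier results of these data known.

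Each member, from the deepest down, took the 5 nearest unused B-cells with 0 IgG UMIs of its library by log total UMIs. Summed counts were fitted with edgeR 4.0.16 (R 4.3.3) by quasi-likelihood, with TMM factors, a library term, a minimum mean of 20 CPM and Benjamini-Hochberg adjustment over all genes tested. Genes of the rule were not tested, and a few genes are not reported here. The p-values rest on agreement between 2 libraries that differ in stage, on dispersion shared across genes and on UMIs pooled over cells. They do not measure the spread between mice, and a call does not require the same direction in both libraries. Genes named were the 12 called genes at each end with the same sign in both libraries and UMIs in at least 10 cells of the higher group, heavy chain genes, and up to 5 genes of each of 21 lists, called genes first. Genes named within ranges, isotypes or other settings, and Cd38, Bcl2 and Zbtb32, were chosen after their values were seen. Ratios of sums carry exact conditional intervals and shares Clopper-Pearson intervals (scipy 1.17.1), at 95%. A gene's CPM used all UMIs. Alternatives covered the thresholds, doublet scores (scanpy 1.11.5), depth, matching, scaling, filters, DESeq2 1.42.0 and each library alone. Scripts were tested on simulated counts. Hinge exons were cut from GENCODE transcript sequences by the exon lengths of the GRCm38 annotation.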

Additional observations from a re-analysis of the deposited data

Results flagged for a closer look

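Lyz2, the myeloid lysozyme gene, was among the 813 genes called higher in members, yet the 2 libraries differed in direction. IgG-high B-cells held 0.129 times the level of matched cells in the Early library (4.46 against 34.6 CPM) and 3.00 times in the Advanced library (68.3 against 22.8 CPM). The difference between the libraries was not tested, since each stage has 1 library. In the Advanced members 1 cell held 97 of 201 Lyz2 UMIs, and in the Early matched cells 1 cell held 92 of 176. Of 4754 genes tested, 20 had counting intervals on opposite sides of 1 in the 2 libraries.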

How the results depend on the processing

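The genes called higher and lower in members, 813 and 766, were 506 and 451 with at least 1 IgG UMI per 1000, 223 and 191 with Jchain under 5, 443 and 365 without cells over 25000 UMIs, 420 and 315 with 1 matched cell a member, 124 and 96 without dividing cells, 289 and 284 at a minimum of 100 CPM and 335 and 221 by DESeq2. Calls lower were 362 without TMM factors and 508 without a library term, and calls higher 1251 with no minimum beyond 10 UMIs. Several of these leave out cells or genes by construction. For the others the cause was not tested. Of the 813 and 766 genes, 335 and 221 were called by DESeq2.

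IgG-high shares were 0.578% Early and 1.89% Advanced of B-cells at 10 IgG UMIs, 0.498% and 1.77% with 1 per 1000, 0.840% and 2.84% with Jchain under 5, and 2.99% Advanced without cells over 25000 UMIs. The Ighg1-led share was 9.68% Early and 16.1% Advanced with Jchain under 5, and 38.0% Advanced at 10 IgG UMIs. The counts higher and lower in Advanced members, 5 and 1, were 1 and 6 with 1 per 1000, 10 and 4 with Jchain under 5, 3 and 2 without the highest doublet scores, and 8 and 3 at 20 CPM. Lower calls were 5 at 10 IgG UMIs, 5 without cells over 25000 UMIs, 2 without the member of most IgG UMIs and 4 with totals without immunoglobulin, ribosomal protein and mitochondrial genes. Higher calls were 3 without dividing cells and 0 at 100 CPM.

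Some log2 ratios changed sign between settings. Without dividing cells Iglc3 was at 0.034, Rgs10 −0.13, Plac8 0.078, Tnfrsf13b 0.0051, Pdia4 0.0078, Sdf2l1 −0.29, Ltb 0.079 and Ier2 0.043. With Jchain under 5, Plac8 was at 0.17, Sdf2l1 −0.058 and Ier2 0.036. Igkc was at 0.081 without TMM factors. With each cell weighted equally Ltb was at 0.036, H2-DMb2 0.032 and Lyz2 −0.54. Fcer1g was at −0.25 with 1 matched cell a member, and Lyz2 at −0.46. Lyz2 was also at −0.12 against cells with 1 or 2 IgG UMIs and −0.74 by DESeq2. With either library alone, Dnajb9 ranged from −0.64 (Advanced) to 0.082 (Early), Ier2 from −0.53 (Early) to 0.0071 (Advanced), Lyz2 from −2.96 (Early) to 1.58 (Advanced) and Tyrobp from −1.50 (Early) to 0.0023 (Advanced).

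Of the other values of named genes, 1589 kept direction and call or moved by less than the spread, 202 moved, 179 lost and 9 gained their call, and 23 are those above. A library alone has no residual degrees of freedom and gives values with no calls, and equal weighting gives no stage count. No paired analysis was possible because each stage has 1 library and the labels pair none. Depth limits the sparse genes. With 1 pool per stage, the stage values hold for these pools only.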

Other observations

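Hbb-bt, a beta-globin gene, was at 131 CPM in Early and 95.4 in Advanced members with at least 2 germinal centre genes, at 0 in members of both libraries with 0 or 1 Ighm UMI outside that range, and at 3.74 and 5.70 in matched cells. It had UMIs in 18 Early and 26 Advanced members, with at most 25 and 32 in a cell. The other globin genes did not accompany it. Hbb-bs had 0 and 1 UMI, Hba-a1 0 and 1, and Hba-a2 0 and 0 in Early and Advanced members.

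Cxcr3, a chemokine receptor gene, was at 68.6 and 34.7 CPM in Early and Advanced members with 0 or 1 Ighm UMI, at 23.8 and 26.8 in the remaining members, at 3.90 and 7.27 in those with germinal centre genes, and at 1.38 and 3.11 in matched cells. Ahnak, which encodes a large scaffold protein, had a like order, at 103 and 62.9, 62.7 and 57.3, 0 and 7.27, and 11.8 and 18.2 CPM. Tbx21 and Itgax, markers of age-associated B-cells, stayed at 6.86 CPM or less in each of these groups. These genes were chosen after their values were seen and were not tested.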
